A study of Mus musculus with 27 samples.

Results

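Nkx2.2 is a homeodomain transcription factor of endocrine cells, and the 4 libraries described here ask what its loss in beta cells does to the RNA of young islets. They are the 2 control and 2 betaKO libraries of islets from mice aged 4 weeks, among 27 samples of the whole series, chosen by their labels alone. The islet is a cluster of hormone cells in which insulin-secreting beta cells lie beside alpha cells (glucagon), delta cells (somatostatin) and PP cells (pancreatic polypeptide). betaKO is the submitters' name for a deletion of Nkx2.2 in beta cells, and the labels used here give no Cre driver, no deleted exon, no strain and no genotype of the controls. Islets at 8 weeks, with 2 controls and 3 betaSDmut libraries, serve for 1 further comparison, and the latter carry a mutation of the SD domain of Nkx2.2 in beta cells. The labels do not say whether replicates came from separate animals or pools, so p-values measure the spread between these libraries. That spread may be technical for the betaKO pair, while the controls differ in sex by their RNA, as given below.

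Beta cells keep their identity through transcription factors that hold insulin and glucose-sensing genes on and the hormone genes of neighbouring cells off. Maturity genes such as the peptide Ucn3, the glucose transporter Slc2a2 and the incretin receptors Glp1r and Gipr mark cells that secrete insulin according to glucose. Embryos without Nkx2.2 are known to form ghrelin cells where beta cells would arise, which makes the hormones of the other islet cells the natural readout. In RNA from whole islets, fewer cells of a type and less RNA per cell cannot be told apart.

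The libraries held between 12398041 and 32385406 counts. Levels below are counts per 1000000 counts (CPM) scaled by the trimmed mean of M values (TMM), and adjusted p-values come from edgeR's quasi-likelihood test over 14942 genes. Their labels name genomic DNA as the material, but the columns hold read counts per gene, in which the islet hormones lead: Ins2 took at least 10.8% and Gcg at least 2.61% of all counts in each library. Control 1 differed from the other 3 libraries in Xist, at 1002 CPM against at most 0.78. The Y-linked Ddx3y was at 0.0906 CPM there and at 72.9 CPM or more in the others. By these genes control 1 is female and the others are male, so the controls came from different animals and also differ in sex. Among the genes named below Slc38a5, Sytl4 and Serpina7 are X-linked, and the part of the sex difference in their values was not tested. The library betaKO 2 stood apart in transcripts typical of intestine: 14 markers, chosen after the values were seen, summed to 2602 CPM in it and to 81.1 to 124 CPM in the other 3. Muc13, an intestinal mucin, was at 388 CPM in betaKO 2 and at most 1.00 CPM elsewhere, and the intestinal factor Cdx2 was at 3.17 CPM against at most 0.0302. The keratins Krt5 and Krt14, of squamous epithelium, were at 19.3 and 18.4 CPM in control 2, at 2.36 and 2.08 CPM in control 1, and at 0 in both betaKO libraries. Results on the hormone, alpha, delta and maturity genes below are therefore also given without betaKO 2. In those fits betaKO 1 alone stands for the betaKO group and the spread comes from the controls, so a call gained there is weak.

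Nkx2-2 itself (chromosome 2, 147177546 to 147194243, GRCm38) was at 104 and 77.2 CPM in the controls and at 94.1 and 65.5 CPM in the betaKO libraries. The groups overlapped, and the difference was -0.18 on the log2 scale (SE 0.237), with an adjusted p of 0.779 by edgeR. A gene-level count does not show whether an exon is missing, so this level neither checks nor replaces the labels, and every direction below rests on them.

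Of the 14942 genes, 233 were called at an adjusted p under 0.05 (1.56%), 121 higher (0.81%) and 112 lower (0.75%) in betaKO islets. An unadjusted p under 0.05 was reached by 2275 genes (15.2%), and DESeq2 called 5.41% of genes, which are the shares to set beside the counts of list members given below. All 233 had both betaKO libraries on the same side of both controls, which was the case for 23.2% of all genes tested on the higher side and 24.3% on the lower. A permutation of 2 against 2 libraries cannot give an exact p below 0.333, so the calls depend on the spread that edgeR shares across genes. Without control 1 only 4 genes were called and without control 2 only 15, against 61 without betaKO 2 and 478 without betaKO 1. All 233 genes kept their direction in each of these 4 fits, which their lack of overlap made nearly certain beforehand. Npy and Rbp4 were the only genes named below that stayed called in all of them, among those called with all 4 libraries. The calls without control 2 included the Y-linked Ddx3y, Eif2s3y, Kdm5d and Uty. That fit set control 1, the library with high Xist, alone against the betaKO libraries, so it also compares the sexes. Of the 36 named genes that were called, 12 remained called without betaKO 2: Npy, Ppy, Slc38a5, Rbp4, Ucn3, Tspan8, Col1a1, Gm11837, O3far1, Epb4.9, T2 and Th. Without betaKO 1, 24 remained called.

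**Figure D1:**
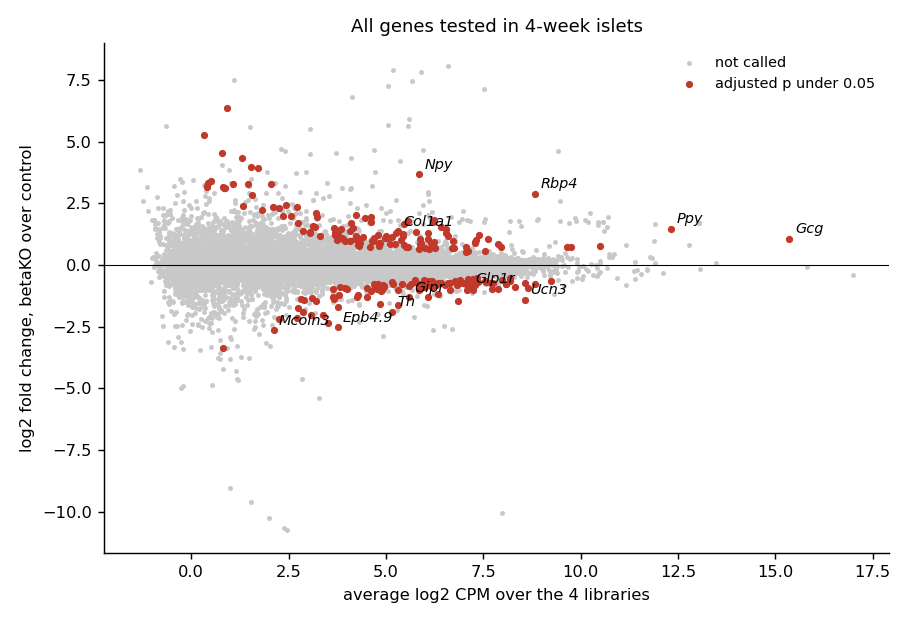
Each point is 1 of the genes tested, with the average log2 CPM over the 4 libraries on the x axis and the log2 fold change of betaKO over control on the y axis. Red points are the 233 called genes; grey points far from 0 were not called, among them Muc13, which is high in betaKO 2 only. Gcg and Ppy are the most abundant labelled genes, and Npy and Rbp4 lie highest among the labelled ones.

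The DNA near several of these genes was bound by Nkx2.2 in MIN6, a mouse beta-cell line, by the authors' deposited chromatin immunoprecipitation sites. The authors' deposited table joins a site to 60 of 99 genes called higher here (60.6%), to 55 of 109 called lower (50.5%) and to 2593 of 9967 genes present in both tables (26.0%). The sites printed are 8 from that table, picked after the values were seen. Of their genes, 7 belong to the hormone, alpha, delta and maturity results, and Th is among the largest decreases. Pyy and Slc2a2 were themselves not called (edgeR adjusted p 0.0722 and 0.0671). Each printed site is the plus strand of GRCm38, 101 bases centred on the authors' position, and none overlaps an annotated exon. Capitals mark 3 motifs searched on both strands: GGCAAC or GTTGCC, as in sites of RFX factors; CACTCA or TGAGTG, a form of the NK2 homeodomain site; and CAGATG or CATCTG, an E-box of the type bound by NeuroD1.
Npy: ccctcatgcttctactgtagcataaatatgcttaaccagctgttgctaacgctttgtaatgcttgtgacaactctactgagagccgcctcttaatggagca
Pyy: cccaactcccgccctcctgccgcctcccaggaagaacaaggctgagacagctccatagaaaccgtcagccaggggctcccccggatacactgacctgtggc
Rbp4: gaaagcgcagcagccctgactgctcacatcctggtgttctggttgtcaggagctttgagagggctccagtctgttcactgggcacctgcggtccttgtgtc
Slc38a5: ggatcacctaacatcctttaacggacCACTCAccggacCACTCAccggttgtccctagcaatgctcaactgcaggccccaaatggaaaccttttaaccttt
Ucn3: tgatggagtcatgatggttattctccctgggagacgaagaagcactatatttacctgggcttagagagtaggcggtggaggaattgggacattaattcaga
Glp1r: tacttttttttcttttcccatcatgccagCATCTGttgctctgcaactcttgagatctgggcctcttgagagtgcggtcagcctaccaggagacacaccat
Slc2a2: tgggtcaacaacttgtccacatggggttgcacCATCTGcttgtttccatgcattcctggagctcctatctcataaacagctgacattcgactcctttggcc
Th: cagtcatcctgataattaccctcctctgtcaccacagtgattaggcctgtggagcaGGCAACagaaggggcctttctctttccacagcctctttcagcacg

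The Npy site (chr6:49904215-49904315) lies 81.6 kb downstream of the gene's start, and the Pyy site (chr11:102123331-102123431) lies upstream of the gene. The Pyy site is also 22.1 kb from the Ppy start, but the authors' deposited table joins no site to Ppy. That table joins none to the called genes Gcg, Gipr and Ppp1r1a either, nor to Ghrl, which was not called. The called genes Ttr, Ghsr, Gjd2 and Sytl4 are joined to sites that are not printed. The Rbp4 site (chr19:38112763-38112863) falls in an intron of the neighbouring gene Ffar4, 12.5 kb downstream of the Rbp4 start, and the Slc38a5 site (chrX:8262499-8262599) lies 8.58 kb upstream. Among the genes with lower RNA, the Ucn3 site (chr13:3982396-3982496) lies 37.1 kb upstream, the Glp1r site (chr17:30885453-30885553) 16.3 kb upstream and the Slc2a2 site (chr3:28682019-28682119) 15.8 kb upstream. The Th site (chr7:142903116-142903216) falls within the annotated span of Th, outside its exons. It lies 28.0 kb downstream of the outermost annotated start, and its place relative to other starts of Th was not examined. By the authors' average log2 CPM, binding was 10.2 at the Glp1r site, 8.80 at Slc38a5, 8.73 at Pyy, 8.03 at Slc2a2, 7.93 at Th, 7.59 at Npy, 6.98 at Rbp4 and 6.74 at Ucn3, against a median of 6.82 over all 6473 sites.

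Slc38a5 holds the NK2-type form 2 times, Glp1r and Slc2a2 hold the E-box, Th holds the RFX-type form, and the other 4 windows hold none of the 3. Over all sites, the RFX-type form was in 19.0% of windows, against 2.89% of windows 2000 bases away and 4.18% of promoter windows of the same length (RefSeq, GRCm38). The NK2-type form was in 19.3%, 6.998% and 5.60% of these, and the E-box in 18.0%, 7.62% and 6.17%. These 3 were taken from the 10 hexamers with the greatest excess at sites over windows 2000 bases away, and the shorter core AAGTG or CACTT was in 22.7% of sites and 21.3% of the windows away from them. A match describes letters in a window, and no match says nothing of the factor.

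Some hormone genes of the other islet cells rose in betaKO islets. Of 18 non-beta hormone and neuropeptide genes, 13 were abundant enough to test, 3 rose (Npy, Ppy and Gcg), none was called lower and 10 were not called. Their median log2 fold change was 1.36, against -0.00365 over all genes tested. Of the 13, 10 had both betaKO libraries above both controls, beside 23.2% of all genes tested. The 5 not tested were Gast, Cck, Gip, Nts and Trh, all at 1.27 CPM or less in every library.

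Npy, neuropeptide Y, an appetite peptide of the brain, was at 6.89 and 9.91 CPM in controls and at 107 and 107 CPM in betaKO islets. Both betaKO libraries were high, and the groups were far apart. Npy rose by 3.69 on the log2 scale (SE 0.192, adjusted p 0.0147 by edgeR), and by 3.69 without betaKO 2 (edgeR adjusted p 0.0288). Ppy, pancreatic polypeptide of the same family, was at 2617 and 2779 CPM in controls and at 8311 and 6688 CPM in betaKO islets. Both betaKO libraries were high, with no overlap. It rose by 1.47 (SE 0.142, edgeR adjusted p 0.0255), and by 1.62 without betaKO 2 (edgeR adjusted p 0.0288).

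Pyy, peptide YY, is encoded next to Ppy on chromosome 11, with the starts of both genes 6.51 kb apart. It was at 918 and 824 CPM in controls and at 2693 and 1773 CPM in betaKO islets, again with no overlap. Its log2 fold change of 1.36 (SE 0.220) missed the threshold with all 4 libraries (edgeR adjusted p 0.0722). Without betaKO 2 the value was 1.63, resting on betaKO 1 alone, the library with the higher level. All 3 members of the family that the list holds were thus higher in both betaKO libraries than in both controls.

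Gcg, which encodes glucagon, the alpha-cell hormone that raises blood glucose, was at 29476 and 25175 CPM in controls and at 62987 and 51125 CPM in betaKO islets. The groups did not overlap. It rose by 1.06 on the log2 scale (SE 0.158, edgeR adjusted p 0.0484), a call lost without betaKO 2 (1.21, edgeR adjusted p 0.0626). As a share of all counts, Gcg went from 3.01% and 2.61% to 5.80% and 5.21%.

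Ghrl, the precursor of ghrelin, the hunger hormone made by epsilon cells of the islet and by the gut, was at 5.86 and 6.59 CPM in controls and at 27.2 and 15.7 CPM in betaKO islets. It was higher in both betaKO libraries, more so in betaKO 1, and the part of RNA from other tissues in this was not tested. The log2 fold change of Ghrl, 1.80 (SE 0.293), was not called with all 4 libraries (edgeR adjusted p 0.0681). Without betaKO 2 the value was 2.14, resting on betaKO 1 alone, the library with the higher level. Tac1, which encodes substance P, was at 2.05 and 1.57 CPM against 4.86 and 5.15 CPM (log2 fold change 1.45, edgeR adjusted p 0.104). Gip, an incretin made in the gut, had 0 CPM in both controls, 0.12 CPM in betaKO 1 and 1.27 CPM in betaKO 2.

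Sst, somatostatin, was at 3354 and 1795 CPM in controls and at 5723 and 4348 CPM in betaKO islets. Both betaKO libraries were above both controls, but the controls alone differed widely, and the log2 fold change of 0.97 (SE 0.359) was not called (edgeR adjusted p 0.337). Vip, named after its values were seen, was at 32.9 and 6.83 CPM against 52.6 and 73.5 CPM, with no overlap but a wide spread between the controls (1.64, edgeR adjusted p 0.537). The authors' deposited table, which calls 4.47% of its genes, has Npy, Ppy, Gcg, Pyy and Ghrl higher, with log2 fold changes of 3.00, 1.27, 0.89, 1.23 and 2.68, and does not call Sst (1.07).

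**Figure D2:**
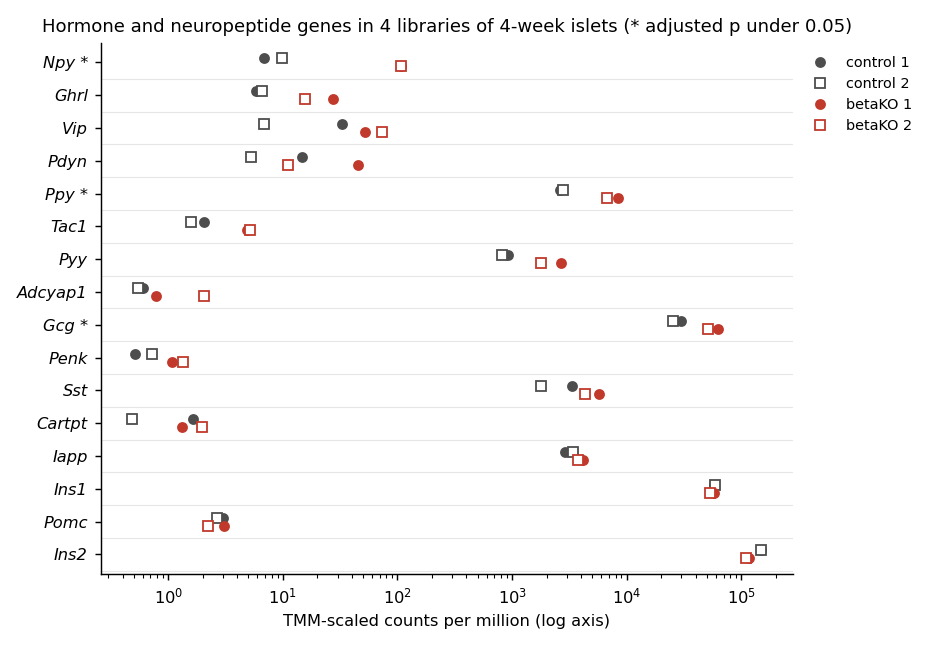
TMM-scaled CPM on a log axis for the 13 tested non-beta hormone genes and the 3 beta-cell hormones Ins1, Ins2 and Iapp, 1 row per gene and 1 symbol per library, ordered by log2 fold change. The betaKO symbols of Npy, Ppy, Pyy, Gcg and Ghrl lie to the right of both controls, with Npy at 107 CPM in both betaKO libraries, and those of Ins2 lie to the left.

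The beta-cell hormones were not called. Ins2 was at 147960 and 149800 CPM in controls and at 116800 and 109060 CPM in betaKO islets, lower in both, at -0.40 on the log2 scale (SE 0.119), and was not called (edgeR adjusted p 0.205). Ins1, the second mouse insulin gene, was at 58279 and 59305 CPM against 57520 and 53610 CPM (log2 fold change -0.08, edgeR adjusted p 0.798). Iapp, the amylin co-secreted with insulin, was at 2886 and 3377 CPM against 4145 and 3736 CPM (0.33, edgeR adjusted p 0.306). Of these 3 genes none was called by edgeR, 2 had an unadjusted p under 0.05, and DESeq2 called Ins2 lower. Ins1 and Ins2 are near-identical in sequence, so the split of reads between them is uncertain.

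Ratios within a library need no scaling between libraries. For each 1000 Ins2 counts there were 199 and 168 Gcg counts in controls and 539 and 469 in betaKO islets. The same ratio for Ppy was 17.7 and 18.6 against 71.2 and 61.3, and for Npy 0.0465 and 0.0662 against 0.916 and 0.980. Npy was also more frequent beside Gcg, at 0.234 and 0.394 counts per 1000 Gcg counts against 1.70 and 2.09, and beside Ppy, at 2.63 and 3.57 against 12.9 and 16.0. Ttr, an alpha-cell transcript, had 39.1 and 40.0 counts per 1000 Gcg counts in controls and 29.1 and 35.6 in betaKO islets, so the hormone was more frequent beside it in both betaKO libraries.

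By length-corrected level, in the authors' deposited FPKM (fragments per kilobase of transcript, scaled to depth), Ppy was listed at 11247 and 11509 in controls and at 30380 and 26050 in betaKO islets. Npy stayed far below it, at 25.1 and 36.4 FPKM against 326 and 347 FPKM, and Ghrl lower still, at 22.1 and 25.2 against 89.8 and 59.8 FPKM. Ins2 is listed at 0 FPKM in all 4 libraries and Gcg in betaKO 2 despite their counts, so those entries give no level.

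Some markers of alpha and delta cells rose as well. All 13 alpha-cell genes of the list were tested, 3 rose (Gcg, Slc38a5 and Ttr), and all 13 had a positive log2 fold change with a median of 0.87. Slc38a5, an amino acid transporter of alpha cells, was at 28.8 and 23.9 CPM in controls and at 66.6 and 53.1 CPM in betaKO islets. The groups were apart, and it rose by 1.18 (SE 0.157, edgeR adjusted p 0.0412). Ttr, transthyretin, a thyroid hormone carrier abundant in alpha cells, was at 1152 and 1006 CPM against 1832 and 1821 CPM (0.76, SE 0.108, edgeR adjusted p 0.0468), a call lost without betaKO 2 (0.76, edgeR adjusted p 0.109).

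Further alpha-cell genes were not called. Etv1, a transcription factor, was at 70.5 and 57.4 CPM against 127 and 105 CPM (0.86, edgeR adjusted p 0.0659). Dpp10 and Gc (the vitamin D binding protein) had log2 fold changes of 0.52 and 0.98, with edgeR adjusted p-values of 0.182 and 0.191. Gc was at 80.1 and 66.4 CPM against 176 and 114 CPM, so both betaKO libraries were above both controls. Without betaKO 2, Gc and Slc38a5 were the 2 members called.

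Rbp4, which encodes the retinol carrier and is a transcript of delta cells in mouse islets, had the smallest p of the 71 named genes. It was at 114 and 102 CPM in controls and at 758 and 838 CPM in betaKO islets, a rise of 2.89 on the log2 scale (SE 0.111, edgeR adjusted p 0.00586). Both betaKO libraries were high, and it stayed called without either of them and without either control. Ghsr, the ghrelin receptor, was at 5.77 and 6.35 CPM against 13.7 and 13.5 CPM (1.17, SE 0.160, edgeR adjusted p 0.0432), a call lost without betaKO 2 (1.18, edgeR adjusted p 0.0942). Of 7 delta-cell genes, 6 were tested and these 2 rose. Sst, Hhex, Crhr2 and Lepr were not called, with log2 fold changes of 0.97, 0.52, 0.79 and -1.06, and Lepr had both betaKO libraries below both controls. For each 1000 Sst counts there were 33.9 and 56.6 Rbp4 counts in controls and 133 and 193 in betaKO islets.

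Some genes of beta-cell maturity and glucose sensing fell. Of 24 in the list, all were tested, 6 fell (Ucn3, Gipr, Glp1r, Gjd2, Sytl4 and Ppp1r1a), none was called higher and 18 were not called. The median log2 fold change was -0.72 and 22 of the 24 were negative. In 18 of them both betaKO libraries were below both controls, beside 24.3% of all genes tested. DESeq2 called 13 lower, beside 5.41% of all genes called in either direction. Without betaKO 2, 2 were called lower by edgeR, Ucn3 and the vitamin D receptor Vdr.

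Ucn3, urocortin 3, a peptide that beta cells begin to make as they mature, was at 542 and 560 CPM in controls and at 220 and 196 CPM in betaKO islets. Both betaKO libraries were low, at 2.65-fold below the controls (log2 fold change -1.41, SE 0.0961, edgeR adjusted p 0.0173). Gipr, the receptor for the gut incretin GIP, was at 62.5 and 73.3 CPM against 29.3 and 25.9 CPM (-1.30, SE 0.127, edgeR adjusted p 0.0264). Glp1r, the receptor for the incretin GLP-1, was at 193 and 182 CPM against 98.2 and 96.1 CPM (-0.95, SE 0.0807, edgeR adjusted p 0.0224). Both incretin receptors thus fell with no overlap between groups, although neither was called without betaKO 2, where the log2 fold changes were -1.21 and -0.93 (edgeR adjusted p 0.0564 and 0.0554).

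The other 3 called members serve electrical coupling, secretion and phosphatase control. Gjd2, the gap junction protein connexin 36 that couples beta cells, was at 313 and 376 CPM against 188 and 210 CPM (-0.79, SE 0.121, edgeR adjusted p 0.0494). Sytl4, granuphilin, which docks insulin granules, was at 552 and 594 CPM against 354 and 321 CPM (-0.76, SE 0.0973, edgeR adjusted p 0.0372). Ppp1r1a, an inhibitor of protein phosphatase 1, was at 344 and 341 CPM against 192 and 212 CPM (-0.76, SE 0.0877, edgeR adjusted p 0.0331). None of these 3 calls held without betaKO 2, where the log2 fold changes were -0.87, -0.69 and -0.83 (edgeR adjusted p 0.101, 0.108 and 0.0676). Of 17 exocytosis genes, 2 fell, Sytl4 among them, and none was called higher.

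The next 4 maturity genes by p were not called. Slc30a8, the zinc transporter of insulin granules, was at 1003 and 1140 CPM against 708 and 644 CPM (log2 fold change -0.66, edgeR adjusted p 0.0610). Trpm5, a cation channel of glucose-stimulated secretion, was at 89.4 and 112 CPM against 38.2 and 25.4 CPM (-1.66, edgeR adjusted p 0.0631). Slc2a2, the glucose transporter GLUT2, was at 735 and 1030 CPM against 357 and 420 CPM (-1.18, edgeR adjusted p 0.0671). In each of these the betaKO libraries were below both controls, as they were for G6pc2, the islet glucose-6-phosphatase (-0.58, edgeR adjusted p 0.0782).

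The subunits of the ATP-sensitive potassium channel, named after their values were seen, had overlapping groups. Abcc8 and Kcnj11 had log2 fold changes of -0.09 and 0.18. For each 1000 Ins1 counts there were 9.30 and 9.44 Ucn3 counts in controls and 3.82 and 3.66 in betaKO islets, and 3.31 and 3.07 Glp1r counts against 1.71 and 1.79. Per 1000 Ins2 counts, as used for the hormones above, the falls were smaller. Ucn3 was then at 3.663 and 3.735 against 1.881 and 1.797, and Glp1r at 1.305 and 1.214 against 0.8404 and 0.8809. Slc30a8 changed little beside Ins2, at 6.781 and 7.608 against 6.06 and 5.905, as did G6pc2, at 20.9 and 22.83 against 19.22 and 19.28. The authors' deposited table calls Ucn3, Glp1r, Gipr, Slc2a2, Slc30a8 and Gjd2 lower, with log2 fold changes of -1.26, -1.35, -1.35, -1.21, -0.73 and -0.70. The authors' deposited table does not call Sytl4 (-0.72), Ppp1r1a (-0.66), Trpm5 (-1.46) or G6pc2 (-0.60). Over all genes, 208 of the 233 called here are in the authors' deposited table, which calls 143 of them, all in the same direction.

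**Figure D3:**
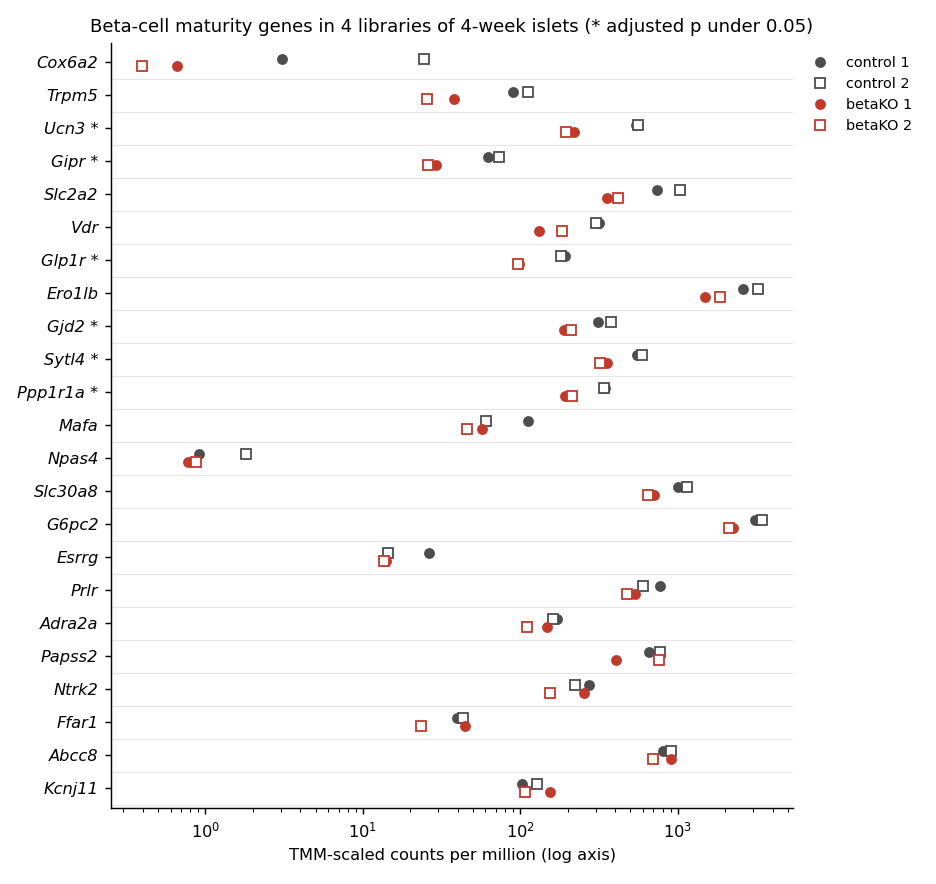
TMM-scaled CPM on a log axis for 23 of the 24 genes of beta-cell maturity and glucose sensing, 1 row per gene and 1 symbol per library, ordered by log2 fold change. The betaKO symbols lie left of both controls in 18 rows, and those of Kcnj11 in the lowest row overlap with the controls.

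No islet transcription factor was called by edgeR among 27 tested, while 10 had an unadjusted p under 0.05 (15.2% over all genes) and DESeq2 called 6 higher and 1 lower. Their median log2 fold change was 0.02. The smallest p-values belonged to Nr4a2, an orphan nuclear receptor, at 4.17 and 5.20 CPM against 11.2 and 10.9 CPM (1.25, edgeR adjusted p 0.0572), Hnf4a (0.57, edgeR adjusted p 0.0778), Isl1 (0.68, edgeR adjusted p 0.124) and the endocrine progenitor factor Neurog3 (1.21, edgeR adjusted p 0.150). Neurog3 stayed low, at 3.53 and 2.24 CPM against 6.90 and 6.57 CPM. Nkx6-1, a beta-cell factor named after its values were seen, was at 235 and 172 CPM against 110 and 73.8 CPM (-1.14, SE 0.267, edgeR adjusted p 0.182). DESeq2 called Nkx6-1 lower, as did edgeR with replicate number as a block in the fit, where 2 other islet factors were called higher. The authors' deposited table calls Nkx6-1 lower (-1.17) and Nr4a2, Hnf4a and Isl1 higher. Pdx1, Neurod1 and Pax6 had log2 fold changes of -0.34, -0.06 and 0.05, and Mafa one of -0.74 with control 2 at 60.5 CPM close to betaKO 1 at 57.1 CPM.

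Of 13 genes of granins and prohormone processing, 1 rose. Pam, the enzyme that amidates peptide hormones, was at 666 and 644 CPM against 1158 and 1009 CPM (0.73, SE 0.106, edgeR adjusted p 0.0468), a call lost without betaKO 2 (0.82, edgeR adjusted p 0.0705). Chgb, Scg2 and Vgf, which are granule proteins, had log2 fold changes of 0.81, 0.82 and 1.37 and were not called (edgeR adjusted p 0.0608, 0.0736 and 0.223). Ptprn2, a granule membrane protein, was the 1 member with a negative value (-0.46, edgeR adjusted p 0.114). Chga, chromogranin A, was level at 10800 and 11572 CPM against 13030 and 10609 CPM.

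Lists of genes normally silent in beta cells, of dedifferentiation and of endoplasmic reticulum stress gave no edgeR call among 20, 9 and 15 members tested. Unadjusted p-values under 0.05 numbered 3, 3 and 6, beside 15.2% over all genes, so that the count for the silent genes was near the background, and DESeq2 called 1, 1 and 4 of them, all higher. The leading members were the thioesterase Acot7 at 7.07 and 2.72 CPM against 29.3 and 29.0 CPM (2.52, edgeR adjusted p 0.125), the thyroxine-binding globulin Serpina7 (0.81, edgeR adjusted p 0.111) and the chaperone Pdia4 (0.44, edgeR adjusted p 0.104). Aldh1a3, a dedifferentiation marker named after its values were seen, was at 6.46 and 1.09 CPM against 12.4 and 11.8 CPM (1.62, edgeR adjusted p 0.475). Lactate dehydrogenase Ldha, also named after its values were seen, was at 10.9, 16.6 and 19.99 CPM in 3 libraries and at 91.9 CPM in betaKO 2, the library with the intestinal transcripts.

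**Figure D4:**
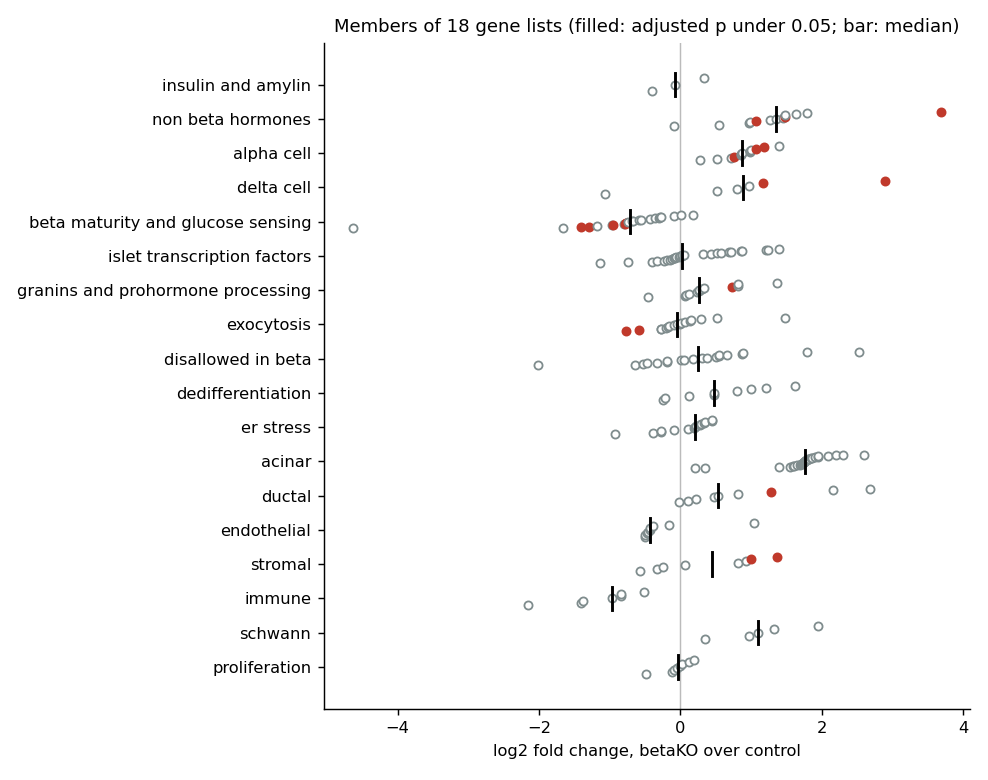
The log2 fold change of betaKO over control (x axis) of every tested member of 18 gene lists (rows), with filled red points for members past the adjusted p of 0.05 and a black bar at each list's median. Non-beta hormones, alpha and delta cell genes lie mostly to the right of 0 and maturity genes to the left, with medians of 1.36, 0.87, 0.88 and -0.72; the acinar list has the median farthest to the right, 1.76, with no member called.

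Markers of other cells moved with the groups too. The 29 acinar genes, which encode digestive enzymes of the exocrine pancreas, summed to 15452 and 8523 CPM in controls and to 58923 and 22259 CPM in betaKO islets. All 29 had a positive log2 fold change, and none of the list was at 0 in every library. None was called by edgeR (10 had an unadjusted p under 0.05, against 15.2% of all genes, and DESeq2 called 5). With replicate number as a block in the fit, however, edgeR called 14 of the 29 higher, although replicate numbers do not pair the libraries. The leading one, Reg1, was at 246 and 158 CPM against 1549 and 906 CPM (2.60, edgeR adjusted p 0.0986). With the acinar genes removed before normalization, the hormone, alpha, delta and maturity lists gave the same counts of calls, 3, 3, 2 and 6, of 239 in all. The part of acinar and intestinal RNA in the changes was not tested.

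Of 9 ductal genes, 1 rose: Tspan8, a tetraspanin of epithelia, was at 39.7 and 39.3 CPM against 101 and 90.6 CPM (1.28, SE 0.0955, edgeR adjusted p 0.0205). Of 8 stromal genes, 2 rose, both fibrillar collagens. Col1a1 was at 22.1 and 22.4 CPM against 52.1 and 62.1 CPM (1.36, edgeR adjusted p 0.0224), and Col3a1 was at 109 and 104 CPM against 190 and 235 CPM (1.00, edgeR adjusted p 0.0344). Col1a2 and Lum also had both betaKO libraries above both controls and were not called (0.93 and 0.82, edgeR adjusted p 0.0619 and 0.495). The other 4 stromal genes, Dcn, Pdgfra, Pdgfrb and Acta2, had overlapping groups, with log2 fold changes of 0.07, -0.33, -0.25 and -0.57.

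None of the 9 endothelial, 7 immune, 5 Schwann-cell and 8 proliferation genes tested was called by edgeR. Unadjusted p-values under 0.05 numbered 5, 1, 2 and 0 among them, beside 15.2% over all genes, and DESeq2 called 1, 1, 1 and 0. Endothelial genes summed to 586 and 677 CPM against 409 and 519 CPM, led by Plvap (-0.48, edgeR adjusted p 0.0746). All 7 immune genes had negative values, among them the macrophage gene Cd68 (-0.97, edgeR adjusted p 0.280), and their sums of 244, 112, 49.3 and 157 CPM overlapped between groups. The mitotic kinase Bub1 was at 4.05 and 6.77 CPM against 3.84 and 3.80 CPM (-0.49, edgeR adjusted p 0.547).

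Beyond the lists, called genes whose log2 CPM averaged 2 or more were ranked by size, and the 10 largest increases began with Npy, Ccdc67 and Rbp4. Ccdc67 (now Deup1), a factor of centriole amplification in multiciliated cells, was at 0.604 and 1.03 CPM against 7.92 and 7.44 CPM (3.27, SE 0.356, edgeR adjusted p 0.0318). Enpp1, an ectonucleotidase, was at 2.36 and 1.99 CPM against 10.7 and 11.6 CPM (2.35, edgeR adjusted p 0.0241). O3far1 (now Ffar4), the receptor for omega-3 fatty acids, was at 8.15 and 6.53 CPM against 33.7 and 27.0 CPM (2.04, edgeR adjusted p 0.0224). It is the neighbour of Rbp4 on chromosome 19, in whose intron the site printed for Rbp4 falls.

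Bdnf, a neurotrophin, was at 2.23 and 1.93 CPM against 8.34 and 8.32 CPM (1.99, edgeR adjusted p 0.0344). Among the 10 were 3 Serpina1 genes, copies of the alpha-1-antitrypsin gene: Serpina1a, Serpina1d and Serpina1c had log2 fold changes of 2.41, 2.34 and 2.30. Their sequences are so alike that reads may be split among them, so the 3 values are uncertain and not independent. Gm11837, annotated as antisense, had one of 2.10, and whether the counts used strand is not given in the sources used here.

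The 10 largest decreases were of genes with varied roles. Mcoln3, a lysosomal cation channel, was at 7.37 and 6.65 CPM against 0.840 and 1.43 CPM (-2.64, SE 0.346, edgeR adjusted p 0.0388). The potassium channels Kcnf1 and Kcnj12 fell, with log2 fold changes of -2.20 (edgeR adjusted p 0.0335) and -2.16 (edgeR adjusted p 0.0372). Grin2c, a glutamate receptor subunit, was at 12.4 and 20.5 CPM against 4.32 and 3.56 CPM (-2.05, edgeR adjusted p 0.0484). Th, tyrosine hydroxylase, the rate-limiting enzyme of dopamine synthesis, was at 51.5 and 59.7 CPM against 12.3 and 17.6 CPM (-1.90, SE 0.196, edgeR adjusted p 0.0321).

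Epb4.9 (now Dmtn), an actin-bundling protein of the red cell skeleton, was at 22.7 and 22.4 CPM against 3.90 and 3.96 CPM (-2.52, SE 0.144, edgeR adjusted p 0.0147). The adhesion molecule Cdh7 (-1.91), Ankrd55 (-2.03), T2 (-2.35) and Gm281 (-1.72) completed the 10. Of these 10, the authors' deposited table calls only T2 lower. It holds Mcoln3, Epb4.9, Kcnf1, Kcnj12, Grin2c, Ankrd55 and Th with negative values but no call, and does not list Cdh7 or Gm281. Outside this ranking and picked after its values were seen, Kcnj5, a subunit of G protein-gated potassium channels, had 1 and 13 counts in controls and 1309 and 843 in betaKO islets, or 0.0302 and 0.786 CPM against 78.5 and 66.8 CPM. edgeR did not call it with all 4 libraries (adjusted p 0.0746), and it was called without control 1 and without control 2 (edgeR adjusted p 0.0258 and 0.00449).

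The 8-week betaSDmut islets show the same genes under the SD domain mutation, where edgeR called 7.94% of genes against 8-week controls. Age and allele differ together between the 2 comparisons and cannot be told apart. In 1 model of all 9 islet libraries, edgeR called a difference between the 4-week and the 8-week effect for 194 of 15995 genes (1.21%), among them 8 of the 71 named genes. Npy, higher in betaKO islets, was at 20.4 and 26.9 CPM in 8-week controls and at 10.7, 18.3 and 8.15 CPM in betaSDmut islets, and the effects differed by 4.62 on the log2 scale (SE 0.493, edgeR adjusted p 0.0113). Ppy was at 3704 and 3403 CPM against 3995, 2827 and 4174 CPM at 8 weeks, and its effects differed by 1.43 (SE 0.259, edgeR adjusted p 0.0468).

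Th went in opposite directions, lower at 4 weeks and higher at 8 weeks, where it was at 41.9 and 27.3 CPM in controls and at 186, 154 and 122 CPM in betaSDmut islets. The effects differed by -4.06 (SE 0.385, edgeR adjusted p 0.00794). Rbp4 was higher in both, from 130 and 135 CPM to 1665, 1611 and 1841 CPM at 8 weeks, a larger effect than at 4 weeks (difference -0.80, SE 0.146, edgeR adjusted p 0.0472). For the 6 maturity genes that fell no difference was called. The 8-week log2 fold changes were -0.62 for Ucn3, itself not called (edgeR adjusted p 0.380), -1.20 for Glp1r and -2.19 for Gipr, and the effects differed by -0.79 (SE 0.514), 0.25 (SE 0.204) and 0.89 (SE 0.252). Sytl4 was at -0.87, Ppp1r1a at -0.14 and Gjd2 at 0.08 at 8 weeks, with differences of 0.10 (SE 0.359), -0.63 (SE 0.317) and -0.88 (SE 0.169), and that of Gjd2 was close to the threshold (edgeR adjusted p 0.0528). Gcg had an 8-week value of -0.44 and a difference of 1.49 (SE 0.283) that missed the threshold (edgeR adjusted p 0.0522). None of the 8 calls of a difference held without the second 8-week control.

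**Figure D5:**
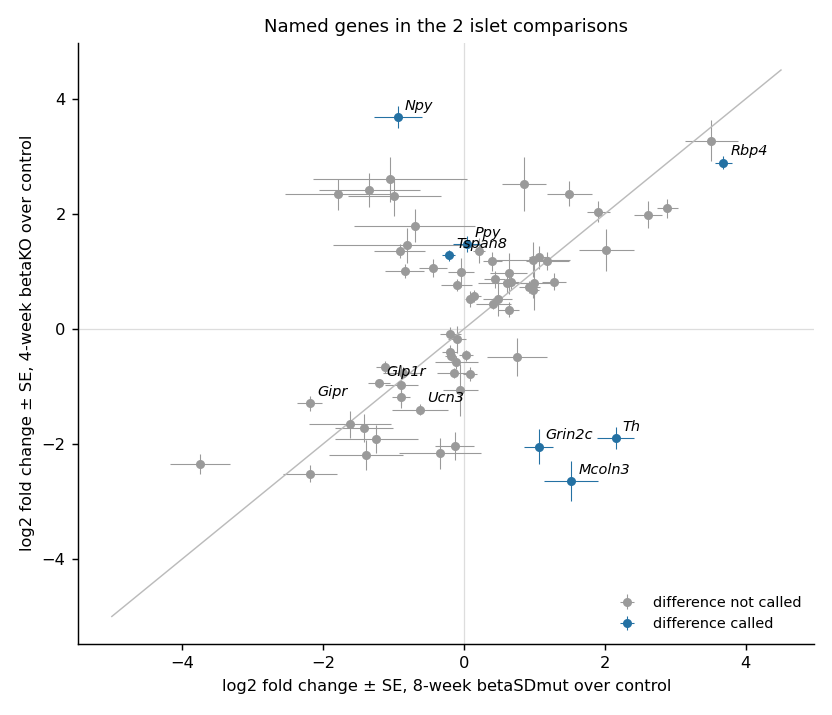
The log2 fold change ± SE of 68 of the 71 named genes in 8-week betaSDmut islets (x axis) and in 4-week betaKO islets (y axis), each over its own controls; the diagonal marks equal effects. Blue points are 7 genes whose effects differed: Npy lies in the upper left, Th, Grin2c and Mcoln3 in the lower right, and Rbp4 is high on both axes.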

How the data were processed

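RNA of 4-week islets was compared between 2 control and 2 betaKO libraries, grouped by their labels. The authors deposited raw read counts per gene, and FPKM values for the same libraries. STAR, Cufflinks, edgeR 3.20.9 and limma 3.34.9 and the build mm10 are named in the submitters' processing notes; how reads were assigned to genes and whether strand was used are not given in the sources used here. The authors' deposited tables give log2 fold changes, p-values, calls and, for Nkx2.2 sites in MIN6 cells, log2 CPM. FPKM columns each ranked best with their own library's counts (4 of 4). All columns used belong to samples of the series.

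Counts of 26487 genes were tested with edgeR 4.0.16 (R 4.3.3; TMM, filterByExpr, robust quasi-likelihood fit, Benjamini-Hochberg adjustment at 0.05) in these 4 libraries alone. Each SE comes from the fold change and its F statistic. CPM are counts over the scaled library size in units of 1000000. The difference from betaSDmut islets is a contrast in a model of 9 libraries. DESeq2 1.42.0, limma voom (3.58.1), RLE and total-size scaling, other filters, a replicate block, removal of acinar genes, a joint fit and fits without 1 library were alternatives. The fits were tested on simulated counts. Replicate pairs differed by more than sampling noise (median chi-square per gene 2.78 and 3.30), so none was counted as a duplicate.

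Named genes are Nkx2-2, list members past the threshold, up to 4 more with the smallest p from 7 islet lists and 1 from each other list without a call, and, each way, the 10 largest called changes where groups did not overlap and log2 CPM averaged 2 or more. Some named genes are not reported here. Other genes are said to be chosen after their values. The members and lists were chosen with earlier results of these data known; the intestinal, squamous and motif sets were chosen after the values were seen. Coordinates are GRCm38 (GENCODE vM21), and Python 3.11.15 read the sequences.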

Additional observations from a re-analysis of the deposited data

Results flagged for a closer look

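Among the named genes given here, 7 had an effect in 4-week betaKO islets that differed from the effect in 8-week betaSDmut islets (betaKO effect minus betaSDmut effect, log2, edgeR's contrast over 9 libraries). Npy differed by 4.62, Tspan8 by 1.49 and Ppy by 1.43. In the other direction, Mcoln3 differed by -4.18, Th by -4.06, Grin2c by -3.11 and Rbp4 by -0.80. Grin2c was higher in betaSDmut islets (1.06, edgeR adjusted p 0.0403), as was Th (2.15, edgeR adjusted p 0.0120). Mcoln3 was at 4.77 and 6.89 CPM in 8-week controls and at 25.1, 12.9 and 12.6 CPM in betaSDmut islets.

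Over 12 alternatives each, the difference was called in 11 for Th and Tspan8, in 9 for Npy, in 8 for Grin2c, in 6 for Mcoln3, in 5 for Ppy and in 2 for Rbp4, with the same sign throughout. Age and allele differ together between the islet groups and cannot be told apart.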

How the results depend on the processing

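The comparison 4-week betaKO versus control gave 233 calls. DESeq2 gave 806, all 9 islet libraries in 1 fit 428, no count filter 372 and total library size 127, and leaving out 1 library gave 4 to 478, with the lone library of a group assumed to vary like the other group. RLE factors (201), limma voom (228), acinar genes removed (239) and CPM of at least 1 in all 4 libraries (252) stayed within 1.5 times. The cause was not tested. All 36 named genes that were called kept their direction in every alternative, which their lack of overlap between groups made nearly certain beforehand. Of these, 2 (Npy and Rbp4) were called in all. Nkx2-2, not called, ranged from -0.47 to 0.053 on the log2 scale with 1 library left out, and was positive without betaKO replicate 2 and without control replicate 1.

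Replicate numbers do not pair the libraries: deviations of same-numbered libraries correlated at -0.039. With a replicate block, 263 genes were called, 157 of them among the 233, and the difference of islet effects gave 135 calls against 194. That difference ranged from 0 to 343 calls when 1 library was left out. The 0 came without the second 8-week control, where 1456 of 16626 genes had an unadjusted p under 0.05 in edgeR, and no other tool was run on it; it was 38 without the first.

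Depth limits the rare transcripts: Gast, Cck, Gip, Nts and Trh were too low to test.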
